A study of Mus musculus with 14 samples.

Results

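The smooth muscle contractile genes described here are Acta2, Actg2, Myh11, Myl9, Tagln, Cnn1, Des, Lmod1, Synpo2 and Smtn. They were taken as every non-control probe whose gene name in the scanner files is one of these symbols, which gave 10 of 27962 gene names and 17 of 41174 probes: 5 for Acta2, 3 for Synpo2, 2 for Tagln and 1 for each of the other genes. Messenger RNA was measured in total RNA of whole testis from untreated C57BL/6 mice on single-colour arrays of 60-base probes, with 3 Glis3KO2 and 3 WT samples at 4 weeks and 4 Glis3KO2 and 4 WT samples at 1 week. Glis3KO2 is the name the labels give to mice with a disrupted Glis3, the gene of a zinc finger transcription factor; they state neither which part of the gene is affected nor whether each sample is a separate animal, and p-values therefore speak only of how far the deposited samples scatter, which may be technical. For the older mice the sample labels say 4 weeks and the series description says 3 weeks; the sample labels are followed.

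Peritubular myoid cells are flat, contractile cells that wrap the seminiferous tubule, and their contraction moves fluid and sperm along it. As in the wall of blood vessels and gut, force comes from smooth muscle myosin pulling on actin filaments after phosphorylation of its regulatory light chain. Serum response factor, helped by the cofactor myocardin, is known to switch on many of these genes through a DNA motif called the CArG box. The same genes are active in vascular smooth muscle, so whole-testis RNA holds the transcripts of both cell types, and fewer cells of a type and less RNA per cell cannot be told apart.

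The CArG box is shown here because it is the promoter element best known for this gene family. It was searched on both strands, as 2 C, 6 middle bases and 2 G, in windows from 250 bases before to 50 bases after each gene's start in RefSeq (GRCm38.p6). Such windows were held for 7 of the 10 genes, and for none of Actg2, Myh11 and Tagln. With all 6 middle bases A or T it was found in 1 of these 7 windows, that of Myl9, and in 1.63% of 32851 windows of all genes. With at most 1 G or C among the middle bases it was found in 2 of the 7, those of Acta2 and Myl9, and in 9.98% of all windows. The stretches that hold the matches are given 5′ to 3′ with the matches in capitals; the Acta2 stretch is chr19:34255384-34255483 on the minus strand, with matches starting 84 and 34 bases before the gene's start, and the Myl9 stretch is chr2:156775279-156775388 on the plus strand, with matches starting 161 and 99 bases before it.
Acta2: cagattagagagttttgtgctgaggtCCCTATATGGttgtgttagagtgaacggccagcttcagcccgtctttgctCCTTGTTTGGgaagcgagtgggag
Myl9: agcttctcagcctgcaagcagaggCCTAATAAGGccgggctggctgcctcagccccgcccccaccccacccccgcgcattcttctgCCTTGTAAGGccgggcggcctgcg
The first match of Myl9 is the one with no G or C in the middle, and the other 3 have 1.

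Signals are given in log2 after subtracting the array's 75th percentile over non-control probes, and a log2 difference is Glis3KO2 minus WT unless ages are named. A probe was called when its Benjamini-Hochberg adjusted p from limma, over all probes tested, was under 0.05. Of 43379 non-control spots, 74.3% to 86.6% per array exceeded background clearly, no member probe was saturated on any array, and precision is limited by how few arrays there are. The 1-week arrays lie on slides 1 to 3 and the 4-week arrays on slides 4 and 5, so age and slide cannot be told apart. The Glis3 probe was well above background on 0 of 4 Glis3KO2 and 4 of 4 WT arrays at 1 week. With each of these Glis3KO2 arrays set at its lowest signal above background, Glis3 was 4.25-fold lower. This bound is approximate, since a probe at background can lie above that signal. The limma adjusted p of 0.0053 belongs to the measured log2 difference of -3.17 and not to this bound. At 4 weeks the Glis3 probe was well above background on 0 of 3 arrays of either genotype and therefore checks nothing.

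At 4 weeks most contractile genes were higher in Glis3KO2 testes relative to the 75th percentile. By each gene's brightest probe, 8 of 10 genes rose, Actg2 fell and Cnn1 did not pass the test, with a median log2 difference of 1.25 against 0.05 for all probes tested. In the same comparison 69.4% of all probes were called, 35.6% higher and 33.8% lower, so a call as such was common at this age. When the arrays were instead put on the scale of 12 Sertoli cell genes, the direction turned: 9 of the 10 genes were lower in Glis3KO2, Lmod1 was higher, 5 were called lower and none higher, with a median of -0.39 against -1.58 for all probes. The higher direction is therefore relative to the bulk of testis transcripts and not to Sertoli cell transcripts, which were themselves higher on the first scale, with 10 of 12 genes called higher and a median log2 difference of 2.01.

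Acta2 encodes alpha smooth muscle actin, the main actin of the thin filament in these cells. Its brightest probe, A_52_P420504, had log2 signals of 5.51, 5.15 and 4.39 on the 4-week Glis3KO2 arrays, against 3.83, 3.71 and 3.81 on the WT arrays. All 3 Glis3KO2 arrays lay above all WT arrays, with Glis3KO2 replicate 3 nearest to them. This made a log2 difference of 1.23 (SE 0.28, limma adjusted p = 0.0071), a 2.35-fold higher signal, and -0.41 on the Sertoli cell scale.

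The 5 Acta2 probes did not give 1 answer. A_52_P210078 had signals of 1.81, 1.05 and 0.20 in 4-week Glis3KO2 testes and -0.54, -0.78 and -0.52 in WT testes, a log2 difference of 1.63 (SE 0.38, adjusted p = 0.0075). A_52_P239556 differed by 0.87 (SE 0.25, adjusted p = 0.018), and was not called with normexp background correction (0.63, adjusted p = 0.065) or without WT replicate 2 (adjusted p = 0.060) or WT replicate 3 (adjusted p = 0.057). A_52_P644232 was well above background on 3 of 3 Glis3KO2 and 0 of 3 WT arrays, so only an approximate bound can be given. With each WT array set at its lowest signal above background, A_52_P644232 was 1.52-fold higher in Glis3KO2. A probe at background can lie above that signal, so the bound is not strict. The measured means were -6.03 in Glis3KO2 and -8.24 in WT. The adjusted p of 0.0013 belongs to the measured log2 difference of 2.21, which rests on WT values at background, and not to the bound. A_52_P644232 also passed the filter only through the Glis3KO2 arrays, where it was higher. After normexp its log2 difference was 0.62 and not called (adjusted p = 0.074). A_52_P210078 and A_52_P239556 thus had the direction of the brightest probe. A_52_P644232 had it too, but adds no support, given how it passed the filter.

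A_51_P450957 stood apart from the other Acta2 probes in its 4-week genotype difference only. Over the 14 arrays it ran closest to the brightest probe (Pearson r = 0.93, a description). The r was 0.86 for A_52_P210078, 0.74 for A_52_P239556 and 0.64 for A_52_P644232. At 4 weeks A_51_P450957 had 3.34, 3.14 and 2.80 in Glis3KO2 testes and 2.79, 2.79 and 2.99 in WT testes. The groups thus overlapped, and its log2 difference of 0.24 (SE 0.18, adjusted p = 0.28) was not called. On the mm7 build the files place it at chr19:33949738-33952992 on the minus strand, a span of 3255 bases for 60 bases of probe, so it crosses at least 1 intron, while the brightest probe lies at chr19:33942803-33942862. Its sequence is shown because actin genes are known to be nearly alike over their coding parts; signal from other actins in it and in the single Actg2 probe was not tested, and the values of both are uncertain in that respect.
Acta2 A_51_P450957: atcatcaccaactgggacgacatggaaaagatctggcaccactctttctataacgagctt

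Actg2 encodes gamma smooth muscle actin, the form that prevails in gut and other visceral muscle. It had log2 signals of 1.73, 1.41 and 1.19 in 4-week Glis3KO2 testes, against 1.78, 2.20 and 2.09 in WT testes. The groups did not overlap, but the highest Glis3KO2 array and the lowest WT array lay close together. The log2 difference was -0.59 (SE 0.20, adjusted p = 0.034), a 1.5-fold lower signal, and -2.22 on the Sertoli cell scale, so Actg2 kept its sign on every scale tried. The call was lost under several alternatives, among them quantile normalization (-0.43, adjusted p = 0.094) and no filter on dim probes (adjusted p = 0.053), and without WT replicate 2, WT replicate 3, Glis3KO2 replicate 2 or Glis3KO2 replicate 3 (adjusted p = 0.12, 0.11, 0.087 and 0.059 in that order).

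**Figure D1:**
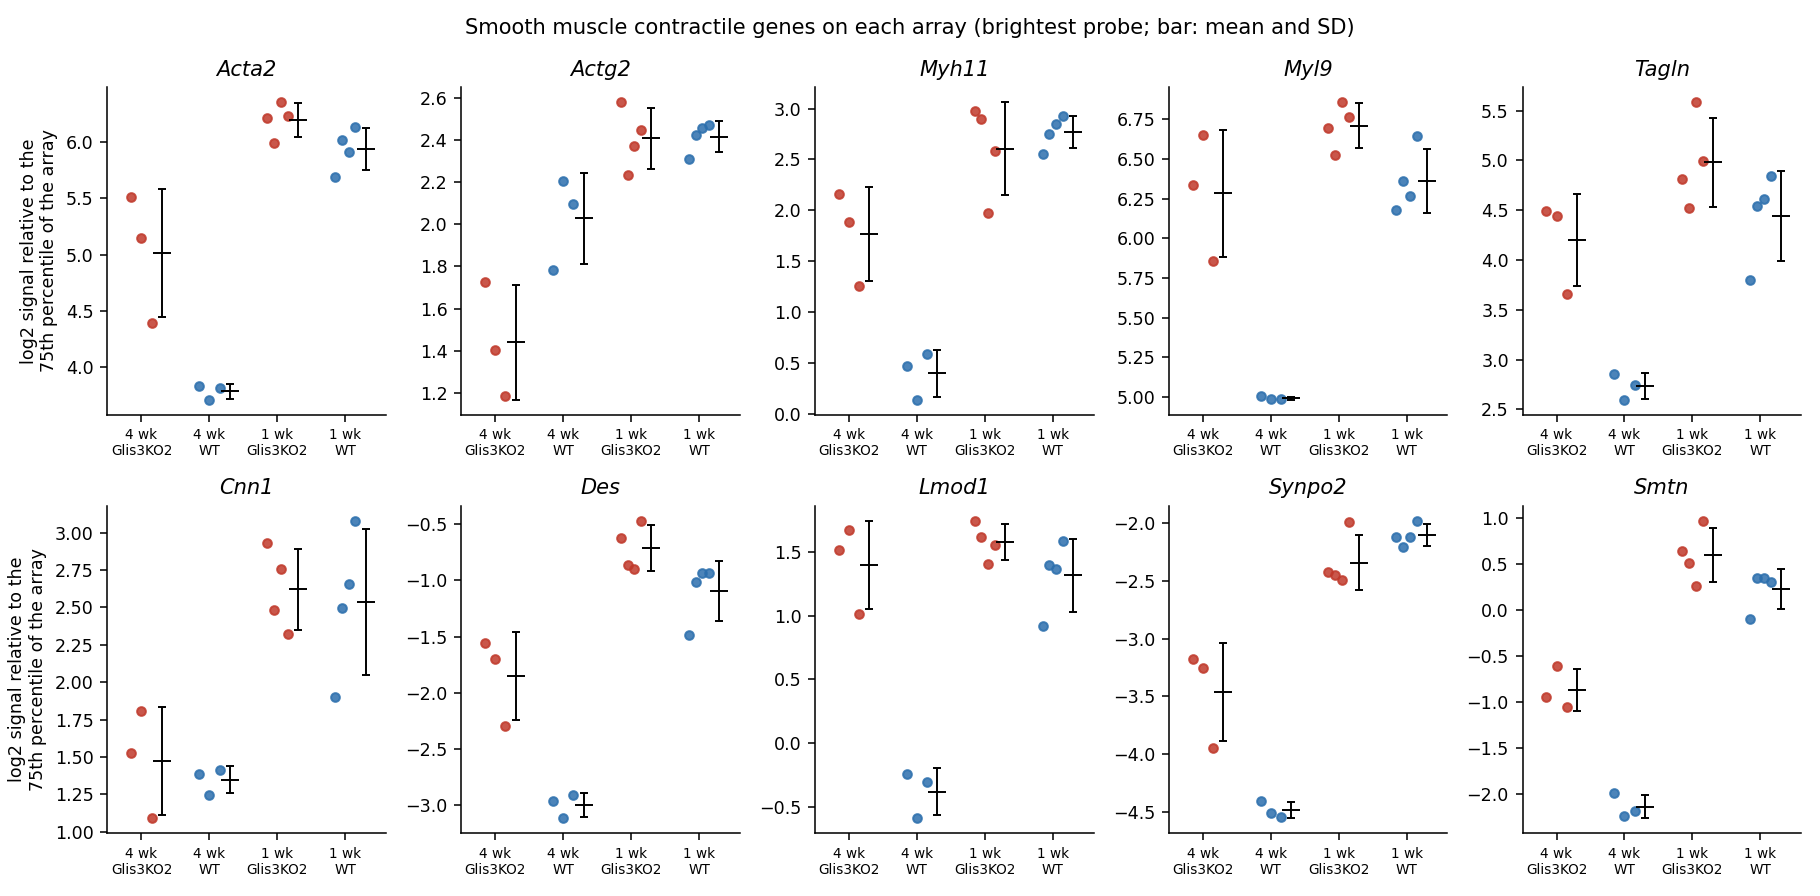
Log2 signal relative to the 75th percentile of the array (y axis, a separate range in each panel) for the brightest probe of the 10 genes, with 1 point per array, Glis3KO2 in red and WT in blue, and the mean and SD as a black bar. At 4 weeks the Glis3KO2 points lie above the WT points for 8 genes, below them for Actg2 and among them for Cnn1; on the scale of Sertoli cell genes 9 of the 10 differences are negative.

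The thick filament genes moved in parallel. Myh11, the smooth muscle myosin heavy chain that is the motor itself, had 2.16, 1.89 and 1.25 in 4-week Glis3KO2 testes and 0.47, 0.14 and 0.59 in WT testes. Myl9, the regulatory light chain whose phosphorylation starts contraction, had 6.34, 6.65 and 5.86 in Glis3KO2 and 5.0, 4.99 and 4.99 in WT. For both genes the groups were apart, and the 3 WT arrays of Myl9 were within 0.01 (SD) of each other. The log2 differences were 1.37 (SE 0.26, adjusted p = 0.0032) for Myh11 and 1.29 (SE 0.22, adjusted p = 0.0021) for Myl9, and -0.27 and -0.35 in the same order on the Sertoli cell scale.

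Tagln encodes transgelin, also called SM22 alpha, which sits on the actin filament. Its brighter probe, A_51_P450527, had 4.49, 4.45 and 3.66 in 4-week Glis3KO2 testes and 2.85, 2.60 and 2.75 in WT testes, a log2 difference of 1.47 (SE 0.25, adjusted p = 0.0021). Its other probe, A_52_P517683, gave 1.62 (SE 0.27, adjusted p = 0.0020), from 1.75, 1.62 and 0.80 in Glis3KO2 and -0.07, -0.44 and -0.17 in WT. The 2 probes thus agreed within their errors, and they moved together over the 14 arrays (Pearson r = 0.98, a description); on the Sertoli cell scale they gave -0.17 and -0.02.

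Cnn1, calponin, which binds actin and inhibits the myosin ATPase, behaved otherwise. It had 1.53, 1.81 and 1.09 in 4-week Glis3KO2 testes and 1.39, 1.24 and 1.41 in WT testes, with the WT values inside the Glis3KO2 range. The log2 difference of 0.13 (SE 0.21, adjusted p = 0.61) did not pass the test, and on the Sertoli cell scale it was -1.51 and called lower (adjusted p = 0.00013).

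Lmod1, leiomodin, which nucleates actin filaments in smooth muscle, had the highest log2 difference of the brightest probes. It had 1.52, 1.67 and 1.01 in 4-week Glis3KO2 testes and -0.25, -0.59 and -0.31 in WT testes, a difference of 1.78 (SE 0.22, adjusted p = 0.00079), a 3.44-fold higher signal. It was also the 1 gene of the 10 that stayed higher on the Sertoli cell scale, by 0.14, which was not called there (adjusted p = 0.41). Smtn, smoothelin, a marker of contractile smooth muscle that associates with actin stress fibres, had -0.95, -0.61 and -1.05 in Glis3KO2 and -1.99, -2.24 and -2.18 in WT, a difference of 1.27 (SE 0.17, adjusted p = 0.0011) that was -0.37 on the Sertoli cell scale.

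Des, desmin, the intermediate filament that ties the contractile units together, had -1.56, -1.70 and -2.29 in 4-week Glis3KO2 testes and -2.96, -3.11 and -2.91 in WT testes. The difference was 1.14 (SE 0.22, adjusted p = 0.0033), and -0.50 on the Sertoli cell scale, where it was called lower (adjusted p = 0.038). Glis3KO2 replicate 3 was again the array nearest to WT.

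Synpo2, synaptopodin 2 or myopodin, an actin-bundling protein of the Z-disc and of dense bodies, was the other gene whose probes disagreed. Its brightest probe, A_51_P119776, had -3.18, -3.26 and -3.95 in 4-week Glis3KO2 testes and -4.41, -4.51 and -4.54 in WT testes, a difference of 1.02 (SE 0.23, adjusted p = 0.0062) and of -0.61 on the Sertoli cell scale. A_52_P223127 had -6.06, -6.34 and -6.27 in Glis3KO2 and -5.87, -6.04 and -6.34 in WT, a difference of -0.14 (SE 0.18, adjusted p = 0.51). A_52_P647260 was at background on all 4-week arrays of both genotypes and was not tested there. Over the 14 arrays A_52_P223127 ran against the brightest probe (Pearson r = -0.45) and A_52_P647260 with it (0.68), both as descriptions of dim probes. A further probe carries the current name Synpo2 but another name in the scanner files, and was not counted. The file places A_52_P223127 at chr3:122951209-122951268 on mm7, minus strand, some way from the brightest probe at chr3:122949681-122949740, and it is printed so that its target can be looked up, together with the called second Tagln probe at chr9:45888956-45889015, minus strand.
Synpo2 A_52_P223127: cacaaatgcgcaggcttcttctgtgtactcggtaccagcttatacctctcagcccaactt
Tagln A_52_P517683: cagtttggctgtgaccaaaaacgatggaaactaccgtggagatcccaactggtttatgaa

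**Figure D2:**
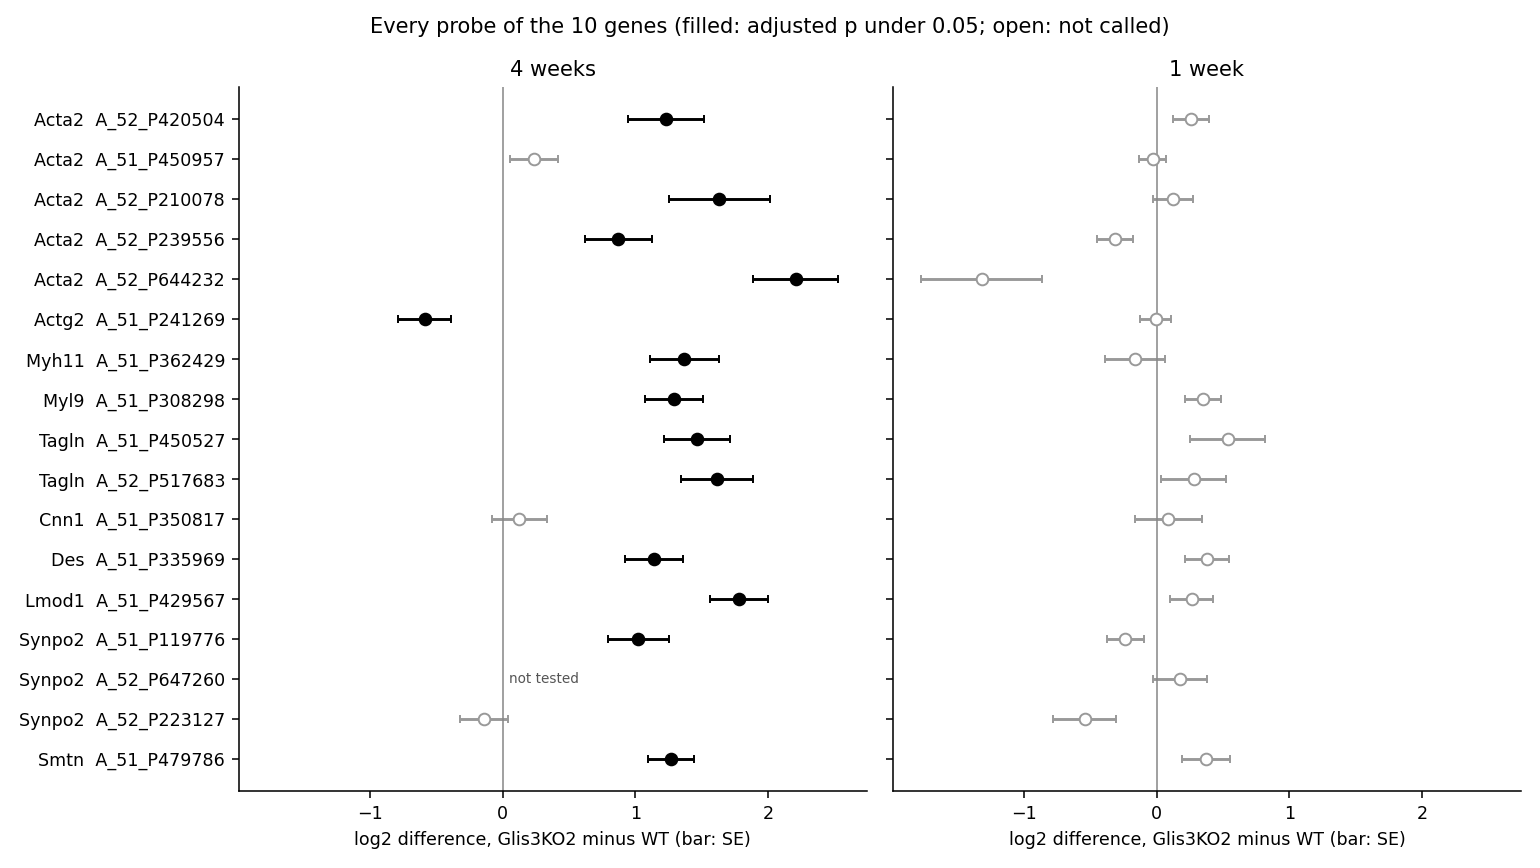
Log2 difference, Glis3KO2 minus WT (x axis; bars are the SE), for each of the 17 probes at 4 weeks (left) and 1 week (right), relative to the 75th percentile; filled points passed an adjusted p of 0.05. At 4 weeks 12 probes were called higher, 1 lower and 3 not, and at 1 week 0 of 17 were called; with scaling on Sertoli cell genes 8 probes are called at 4 weeks and all 8 are lower.

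Counted by probe, 16 of the 17 passed the filter on dim probes at 4 weeks, and 12 of them were called higher and 1 lower. The 12 include Acta2 A_52_P644232, which was at background on the WT arrays. The groups of arrays did not overlap for 9 of the 10 genes, 8 of them with Glis3KO2 above. The exact two-sided permutation p of each of these genes was 0.1, the smallest that 3 arrays against 3 allow. The share of all probes without overlap was not counted. Since 69.4% of all probes were called at this age, the lack of overlap is not read as particular to these genes. The mean over the 10 genes was 1.76, 1.75 and 1.12 on the Glis3KO2 arrays and 0.57, 0.44 and 0.57 on the WT arrays, so Glis3KO2 replicate 3 was the one nearest to WT. That array shares slide 5 with WT replicate 2; within slide 5, with 1 array of each genotype, the median gene difference was 0.85, and within slide 4, with 2 of each, it was 1.40. Its mean over 10 spermatocyte and spermatid genes was 3.15, against 2.72 and 2.10 on the other Glis3KO2 arrays and 4.96 to 5.31 in WT, and its part in the result was not tested. Without it, 13 member probes were called, all higher, since Acta2 A_51_P450957 then passed the test (0.38, adjusted p = 0.036) and Actg2 missed it (-0.46, adjusted p = 0.059), while Cnn1 stayed uncalled (0.32, adjusted p = 0.071).

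**Figure D3:**
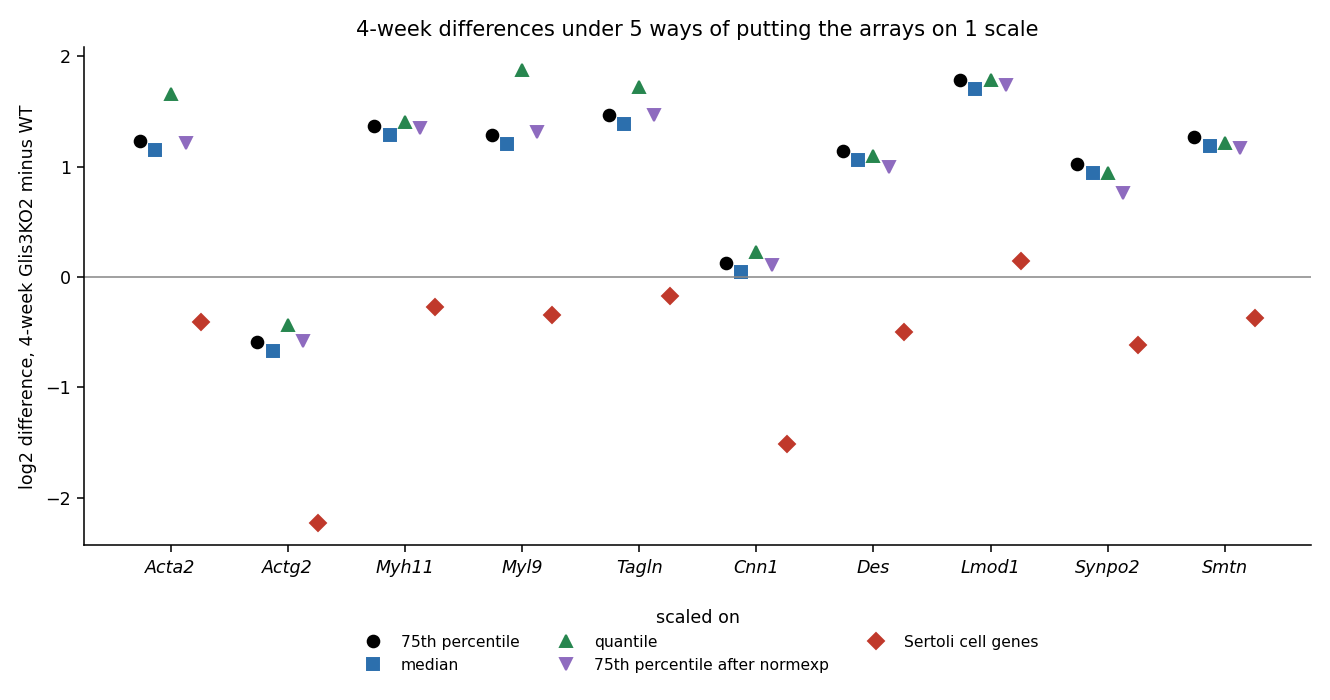
Log2 difference, 4-week Glis3KO2 minus WT (y axis), for the brightest probe of each gene under 5 ways of putting the arrays on 1 scale. The 75th percentile, median, quantile and normexp settings put the same 9 genes above 0 and Actg2 below it, while scaling on Sertoli cell genes puts 9 genes below 0 and leaves Lmod1 at 0.14.

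Because a scaling factor moves all genes of an array by 1 amount, the genes were also set against each other on the same array, which no such factor can change; this was chosen after seeing the data. Each brightest probe was taken minus the mean of the 10 on its array. At 4 weeks Actg2 was then lower in Glis3KO2 by 1.60 log2 units, at -0.03, -0.34 and 0.07 in Glis3KO2 against 1.21, 1.76 and 1.52 in WT. Cnn1 was lower too, at -0.23, 0.06 and -0.03 in Glis3KO2 against 0.81, 0.80 and 0.84 in WT, a difference of -0.89. Lmod1 was higher by 0.77, at -0.24, -0.07 and -0.11 in Glis3KO2 against -0.82, -1.03 and -0.88 in WT. The brightest probes of the contractile genes thus changed unequally, with those of Actg2 and Cnn1 behind the rest and that of Lmod1 ahead of it, whichever scaling factor is used between arrays. Actg2, Cnn1 and Lmod1 have 1 probe each. Before the mean was taken off, Cnn1 differed by 0.13 at 4 weeks, and probes of Acta2 alone by 0.24 (A_51_P450957) and 1.63 (A_52_P210078). Whether these are differences between genes or between probes was not tested, nor was signal from other actins in the Actg2 probe.

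The other genes differed less from the mean of the 10 at 4 weeks. The differences were 0.46 for Tagln, 0.36 for Myh11, 0.28 for Myl9, 0.22 for Acta2 and 0.13 for Des, in each case with no overlap of the groups. For Smtn (0.26) and Synpo2 (0.01) the groups overlapped. The exact permutation p was 0.1, the smallest possible, for each gene with no overlap, 0.3 for Smtn and 0.9 for Synpo2. These values are tied to each other, since the 10 deviations on an array sum to 0, so the low values of Actg2 and Cnn1 raise the others. At 1 week only Synpo2 had no overlap on this measure, lower in Glis3KO2 by 0.42 (exact permutation p = 0.029, the smallest that 4 against 4 allow, before any adjustment over the 10 genes).

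**Figure D4:**
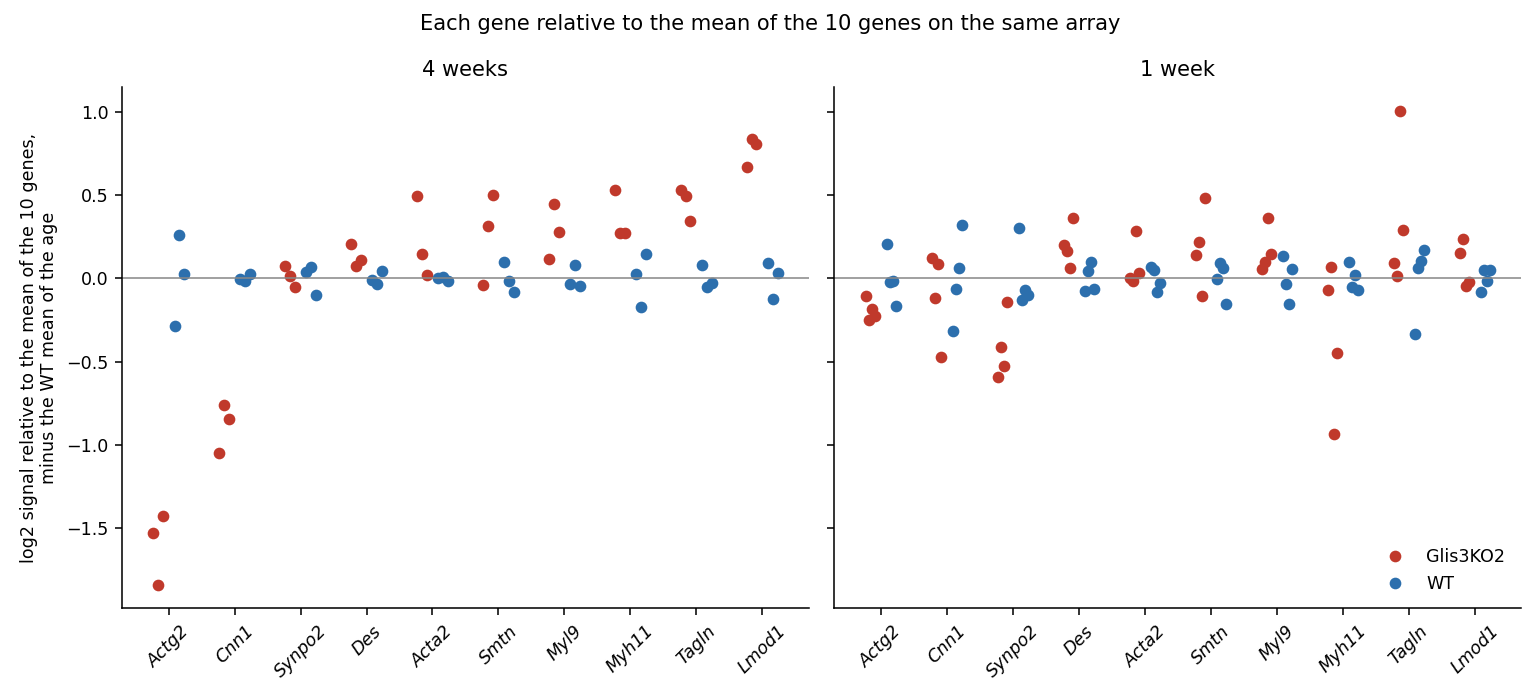
Log2 signal of each gene's brightest probe relative to the mean of the 10 genes on the same array, minus the WT mean of that age (y axis), with 1 point per array, Glis3KO2 in red and WT in blue, 4 weeks left and 1 week right. Actg2 and Cnn1 lie lowest at 4 weeks, by 1.60 and 0.89 log2 units below WT, and Lmod1 highest at 0.77.

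At 1 week no contractile gene was called. None of the 17 probes passed the test in limma, against 9.99% of all probes, 3.24% higher and 6.76% lower. An unadjusted limma p under 0.05 was found for 2 of the 17, against 12199 of all 33710 probes tested. The median log2 difference of the 10 genes was 0.26, against -0.12 for all probes. The genes of largest difference among the brightest probes were Tagln, at 4.81, 4.52, 5.59 and 5.0 in Glis3KO2 against 3.80, 4.54, 4.61 and 4.84 in WT (0.53, adjusted p = 0.21), and Des, at -0.62, -0.86, -0.90 and -0.47 in Glis3KO2 against -1.48, -1.02, -0.93 and -0.93 in WT (0.38, adjusted p = 0.14). Des was the 1 gene whose groups did not overlap (exact permutation p = 0.029, before any adjustment over the 10 genes). The share of all probes without overlap was not counted at this age.

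The sign at 1 week depended on the scale and differed between slides. Relative to the 75th percentile 7 genes were above 0, against all 10 with median scaling, 5 with quantile normalization and 1 with scaling on Sertoli cell genes, where 6 of the 17 probes were called lower. Median scaling moved the median of all probes by 0.26 at this age and Sertoli cell scaling by -0.38. Relative to the 75th percentile, the median gene difference within slide 1 was 0.44, with 8 of 10 genes above 0. Within slide 2 it was -0.03, with 5 of 10 genes above 0. Acta2 A_52_P644232 was lower, at -5.65, -5.87, -6.91 and -7.86 in Glis3KO2 against -5.41, -5.48, -4.90 and -5.23 in WT, with no overlap and above background on 2 of 4 Glis3KO2 arrays, but the difference of -1.32 was not called (SE 0.46, adjusted p = 0.085) and was -0.16 after normexp background correction. The brightest Acta2 probe differed by 0.26 (SE 0.14, adjusted p = 0.21).

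The genotype difference itself differed between the ages. Tested as the 4-week minus the 1-week difference in 1 fit of all arrays, it was higher at 4 weeks for 11 of 17 probes and lower for 2, against 31.1% and 20.8% of all probes, or 51.9% in either direction. By brightest probe it was called for 8 of 10 genes: higher for Myh11 (1.53, SE 0.36, adjusted p = 0.0038), Lmod1 (1.52, SE 0.27, adjusted p = 0.00068), Synpo2, Acta2, Myl9, Smtn and Des, and lower for Actg2 (-0.58, SE 0.22, adjusted p = 0.041). The calls of Des and Actg2 were each lost in 15 of 24 alternatives, most of them with 1 array left out, with adjusted p up to 0.30 for Des and 0.37 for Actg2. Tagln missed it with its brighter probe (0.94, adjusted p = 0.077) and passed with the other (1.34, adjusted p = 0.012), and Cnn1 was at 0.04. On the Sertoli cell scale 7 of the 10 genes had a negative difference and none was called higher. With median scaling 3 genes were called higher and Actg2 lower.

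Set between the ages, contractile transcripts were lower at 4 weeks in both genotypes. In Glis3KO2 8 genes were called lower at 4 weeks than at 1 week, by a median log2 difference of -1.04 over the 10 (all probes -0.16). There 61.3% of all probes were called, 25.9% higher and 35.4% lower. The call of the brighter Tagln probe was lost in 6 of 16 alternatives, with adjusted p up to 0.17, and that of Myh11 without 4-week Glis3KO2 replicate 3 (-0.58, adjusted p = 0.067). In WT all 10 genes were called lower, by a median of -1.81 (all probes -0.59), where 78.6% of all probes were called, 28.3% higher and 50.3% lower. Of these WT calls that of Actg2 (-0.39, adjusted p = 0.035) was lost in 9 of 16 alternatives, among them median scaling (-0.25, adjusted p = 0.20). The brightest Acta2 probe, for instance, was 2.27-fold lower at 4 weeks in Glis3KO2 and 4.45-fold lower in WT, and Smtn was 2.76-fold lower in Glis3KO2 and 5.15-fold lower in WT. Actg2 was lower by 1.96-fold in Glis3KO2 and by 1.31-fold in WT. The dim probe Synpo2 A_52_P223127 passed the test as higher with age in Glis3KO2 (0.60, adjusted p = 0.037), but the call was lost in 13 of 14 alternatives, with adjusted p up to 0.59.

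The genes not called lower with age in Glis3KO2 were Lmod1, at 1.40 ± 0.35 (SD, n = 3) at 4 weeks and 1.58 ± 0.14 (SD, n = 4) at 1 week, and Myl9, at 6.28 ± 0.40 (SD, n = 3) and 6.71 ± 0.14 (SD, n = 4). For 3 of the dimmer Acta2 probes the Glis3KO2 age groups also overlapped (differences 0.01, 0.21 and 0.54), while the brightest gave -1.18 and A_51_P450957 gave -1.01. On the Sertoli cell scale 9 of the 10 genes were called lower with age in Glis3KO2, and in WT 6 were called lower and Actg2 higher, by 0.80. These age differences share their arrays with the genotype differences above and add no independent evidence.

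Other genes of the contraction machinery moved the same way. Of 24 further contraction and cytoskeleton genes measured at 4 weeks, 20 were higher in Glis3KO2 and 2 lower, with a median log2 difference of 1.31, which was -0.33 with 2 higher and 9 lower on the Sertoli cell scale. Cnn3, the calponin of many non-muscle cells, rose by 3.32 (SE 0.21) and was still higher, by 1.69, on the Sertoli cell scale. Vcl, vinculin of the focal adhesions, rose by 2.12 (0.48 on the Sertoli cell scale), and Mylk, the kinase that phosphorylates the light chain encoded by Myl9, by 1.38 (-0.25 on the Sertoli cell scale). Those that fell were Myh10, a non-muscle myosin heavy chain (-1.87), and Kcnmb1, a subunit of the calcium-activated potassium channel of smooth muscle (-0.45), which were lower on both scales. Kcnmb1 was dim, at -6.42 in Glis3KO2 and -5.97 in WT, where the lowest signals above background on the 4-week arrays were -7.10 to -6.52. After normexp background correction only 1 of the 24 genes was called lower, and 23 had a difference above 0. At 1 week 0 of the 24 were called.

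Among 11 measured regulators of the serum response factor programme, 7 were higher and 3 lower in 4-week Glis3KO2 testes, against 1 higher and 7 lower on the Sertoli cell scale. The 7 include Hey2, which was at background on all 4-week WT arrays. It passed the filter only through the Glis3KO2 arrays, where it was higher, and adds no support. With median scaling, quantile normalization or normexp background correction 6 were higher and 3 lower. Srf itself, the factor that binds the CArG box, rose by 1.76 (SE 0.26, adjusted p = 0.0014), at 2.44 ± 0.52 in Glis3KO2 and 0.69 ± 0.02 in WT (SD, n = 3 each), and by 0.12 on the Sertoli cell scale, not called there. Myocd, its muscle cofactor myocardin, rose by 1.82 (0.18 on the Sertoli cell scale, not called), and Tead1, a further activator of muscle promoters, by 2.76 (1.12 there). The cofactors Mrtfb (-1.34) and Mrtfa (-0.68) and the repressor of contractile genes Klf4 (-0.92) fell, and on the Sertoli cell scale they were lower still. None of the 11 was called at 1 week.

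Of 16 genes of peritubular signalling and matrix, 12 were higher and 1 lower in 4-week Glis3KO2 testes, with a median of 1.55 that was -0.08, with 4 higher and 4 lower, on the Sertoli cell scale. Ednra, a receptor for the contractile peptide endothelin, rose by 2.40 and Avpr1a, a vasopressin receptor, by 1.87; on the Sertoli cell scale they differed by 0.76, still called, and by 0.24, not called. Pdgfra, a receptor for platelet-derived growth factor found on interstitial and peritubular precursors, rose by 2.24 (0.60 there), and the matrix proteoglycan Dcn by 2.55 (0.91 there). Oxtr, the oxytocin receptor, was called lower but was at background on all 4-week Glis3KO2 arrays, so no fold is given. At 1 week Mcam, an adhesion molecule of mural and peritubular cells, was the 1 gene of the list called, lower by 1.00.

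Markers of vascular mural and endothelial cells moved with the contractile genes, while those of skeletal and cardiac muscle were mixed. Of 7 vascular mural cell genes 5 were higher and none lower at 4 weeks, and the mean of the list ran from -1.82 to -1.42 on the Glis3KO2 arrays and from -2.68 to -2.25 on the WT arrays. The 5 include Notch3, also among the serum response factor regulators, and Pdgfrb, also on the peritubular list, so these lists are not independent. Of 8 endothelial genes 5 were higher and none lower, with list means of -2.26 to -1.73 in Glis3KO2 and -3.11 to -2.61 in WT. Both lists turned on the Sertoli cell scale, to 4 of 7 and 6 of 8 lower. Skeletal muscle genes were mixed, with 2 of 10 higher and 2 lower and list means of -3.89 to -3.60 in Glis3KO2 and -3.75 in WT, and Pvalb at background on every 4-week array. Of 5 cardiac muscle genes 3 were higher and 2 lower, with list means of -1.50 to -0.71 in Glis3KO2 and -1.27 to -1.20 in WT. The part of vascular or other muscle cells in the contractile gene values was not tested.

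Germ cell genes went the other way. All 10 spermatocyte and spermatid genes fell at 4 weeks in Glis3KO2, with list means of 2.10 to 3.15 against 4.96 to 5.31 in WT, and 6 of 8 genes of germ cells of all stages fell. At 1 week the list means of spermatocyte and spermatid genes were -5.17 to -3.98 in Glis3KO2 and -4.66 to -3.83 in WT, which overlapped. The list of germ cells of all stages was lower without overlap at 1 week, at -0.87 to 1.24 in Glis3KO2 and 1.74 to 2.39 in WT, with 3 of 8 genes called lower. Of 12 Sertoli cell genes 10 were higher, with list means of 2.84 to 3.25 in Glis3KO2 and 1.35 to 1.49 in WT at 4 weeks. Of 7 Leydig cell genes 1 was higher and 3 lower at 4 weeks, of 6 macrophage genes 4 and 1, of 6 fibroblast and matrix genes 4 and 0, and of 7 epididymis genes 1 and 2. Dcn and Pdgfra are on both the fibroblast and the peritubular list. The part of cell makeup in these marker differences and in the contractile gene values was not tested.

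**Figure D5:**
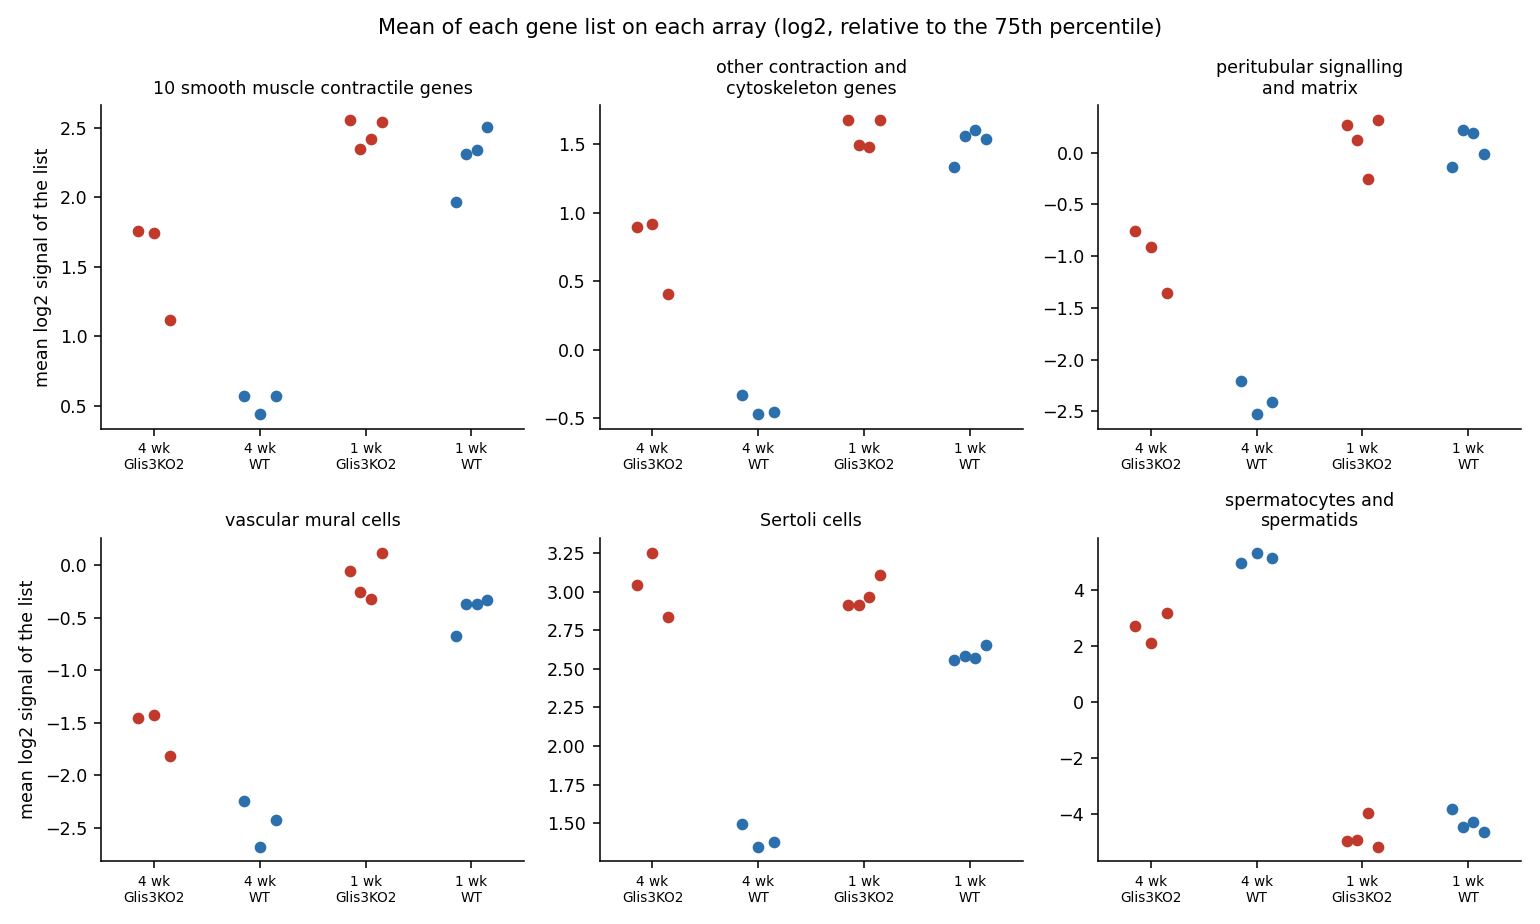
Mean log2 signal, relative to the 75th percentile (y axis, a separate range in each panel), of the 10 contractile genes and of 5 other gene lists on each array, Glis3KO2 in red and WT in blue. At 4 weeks the contractile, peritubular, mural and Sertoli cell means lie higher in Glis3KO2 and the spermatocyte and spermatid mean lower; the directions are those on the 75th percentile scale, and all but the Sertoli cell list have a median below 0 on the Sertoli cell scale.

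Across the 14 arrays the genes formed a common pattern with exceptions. The correlation of each gene's brightest probe with the mean of the other 9 was 0.99 for Des and Acta2, 0.97 for Smtn and between 0.89 and 0.96 for Myh11, Myl9, Tagln, Synpo2 and Lmod1, but 0.87 for Cnn1 and 0.51 for Actg2. The points share arrays, slides and scale and fall into the 4 groups, so these are descriptions. Of 14210 genes well above background on all arrays, the 6 most like the mean of the 10 were Dlg1, Tspan2, Samd14, Araf, Abcd4 and Nuak1 (Pearson r from 0.992 to 0.995). Dlg1, which encodes a scaffold protein of cell junctions, had 1.18 ± 0.33 in Glis3KO2 and 0.32 ± 0.06 in WT at 4 weeks (SD, n = 3 each), and 2.03 ± 0.07 and 1.79 ± 0.13 in the same order at 1 week (SD, n = 4 each).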

How the data were processed

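RNA of 14 samples was labelled with Cy3 and hybridised 1 sample to an array, per the labels. Agilent Feature Extraction 9.5 is named in the submitters' processing notes. The authors deposited its output: per the file headers, each spot has a mean, a background and a processed intensity, the last already corrected for background within its array, and nothing was done between arrays. The deposited series table repeats the processed intensity exactly for 45018 spots. Probe positions are on mm7, as the scanner files give them.

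Spots with non-uniform or population outlier flags were left out, log2 of the processed intensity was averaged over the spots of a probe, and each array's 75th percentile over non-control probes was subtracted. Testing required a probe to exceed background clearly on 3 or more arrays of some group. Each age was fitted on its own, and all 14 arrays together for the age comparisons and the difference of the genotype effects, with limma 3.58.1 in R 4.3.3. Single values were compared by exact two-sided permutation of arrays. Gene lists were named through RefSeq symbols, and the brightest probe stands for a gene. Genes named are all members, up to 6 list genes per direction with the smallest p, Glis3, and the 6 genes most like the members' mean. The members and lists were chosen with earlier results of these data known. The replicate numbers do not pair the samples. The fit was tested on simulated data. Tables were made in Python 3.11.15.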

Additional observations from a re-analysis of the deposited data

Results flagged for a closer look

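The genotype difference at 4 weeks differed from that at 1 week, by the test of the difference in 1 fit of all arrays, for 13 of the 17 probes. For Acta2 it was higher by 0.97 (A_52_P420504), 1.51 (A_52_P210078), 1.19 (A_52_P239556) and 3.53 (A_52_P644232), the last with 4-week WT and part of 1-week Glis3KO2 at background. It was higher by 1.53 for Myh11, 0.94 for Myl9, 1.34 for Tagln A_52_P517683, 0.76 for Des, 1.52 for Lmod1, 1.26 for Synpo2 A_51_P119776 and 0.90 for Smtn. It was lower for Actg2, at -0.58, and for Synpo2 A_52_P647260, at -1.02, the latter with all 4-week arrays at background. On the Sertoli cell scale the sign turned for Myl9, Des, Smtn and 2 of these Acta2 probes.

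In 34 groups of 4 arrays, 4 had 1 array far from the others, where chance flags about 1 in 20. 1-week WT replicate 1 was low for Tagln A_52_P517683 (1.25), Des (-1.48) and Smtn (-0.0941), and its mean over the 10 genes was 1.96, with the remaining WT arrays of that age at 2.31 to 2.51. 1-week Glis3KO2 replicate 4, the array alone on slide 3, was high for Synpo2 A_51_P119776 (-1.99).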

How the results depend on the processing

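At 4 weeks 13 member probes were called, and 11 to 13 without each array in turn (all probes 18693 to 23871). With 1 probe per gene name, which holds 10 member probes, 9 were called. Under the other alternatives 11 to 13 were called, except with scaling on Sertoli cell genes, where 8 were called and all were lower. There Acta2 read -0.41, -1.40, -0.0029 and -0.76 (A_52_P420504, A_51_P450957, A_52_P210078, A_52_P239556), Cnn1 -1.51, Des -0.50, Myh11 -0.27, Myl9 -0.35, Smtn -0.37, Synpo2 A_51_P119776 -0.61, and Tagln -0.17 and -0.0209 (A_52_P517683), which turned their sign. In the difference between the ages it turned Acta2 (-0.28, -0.99 and -0.0692 for A_52_P420504, A_51_P450957 and A_52_P239556), Cnn1 (-1.22), Des (-0.49), Myl9 (-0.32) and Smtn (-0.36), and in WT age Acta2 A_52_P239556 (0.21), Actg2 (0.80) and Synpo2 A_52_P647260 (0.27). A scale built on genes that differ between the groups shifts all probes of an array alike, by construction.

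At 1 week the number of probes called over the whole array moved widely, against 3369: 5219 with median scaling, 12771 with Sertoli cell scaling, 1497 with no filter, 2218 with 1 probe per gene name, 5824 in 1 fit of all arrays, 681 with slide as a block, 587 with the replicate number as a block, 5517 with an intensity trend, and 500 to 5253 without each array; the cause was not tested. Member probes called stayed 0 except with Sertoli cell scaling (6), in 1 fit (1, Acta2 A_52_P644232) and without 1-week WT replicate 4 (1, Synpo2 A_52_P223127, so 0 to 1 over the left-out arrays). For the difference, 8 member probes were called with median scaling, 5 with Sertoli cell scaling, and 8 with 1 probe per gene name, which holds fewer probes (all probes 12113), and 11 to 14 without each array. For WT age 10 were called with Sertoli cell scaling and 10 with 1 probe per gene name, and 15 to 16 without each array. For Glis3KO2 age 8 to 12 were called without each array.

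Same-numbered arrays did not deviate together (correlations from -0.32 to 0.14), so the numbers were not taken to pair samples. With the replicate block 12 member probes were called at 4 weeks, where the Actg2 call was lost (-0.59, adjusted p = 0.073), 0 at 1 week, 11 for the difference, and 9 and 15 for age in Glis3KO2 and WT. A slide block between ages and counts of calls within a slide could not be had.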
